A study of Homo sapiens with 5 samples.

Results

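The genes described here code for splicing factors, the proteins that recognise introns in a transcript, assemble the spliceosome on them and choose between alternative exons. They were taken by name: every probe set with 1 gene symbol that begins with SRSF, HNRNP, SF3A or SF3B, SNRP, U2AF, PRPF, LSM, CLK or RBM (a number had to follow in SRSF, PRPF, LSM, CLK and RBM). With the brightest probe set of each gene this gave 69 of 7713 genes. They are 8 SR proteins (SRSF), 3 CLK kinases, 14 hnRNPs, 9 proteins of the U2 branch site complex and its loading factors (SF3A, SF3B and U2AF), 11 snRNP proteins (SNRP), 8 LSM proteins, 6 PRPF proteins and 10 RBM proteins. Expression was measured on Affymetrix arrays of total RNA from KM-H2 (written KMH2 in the labels), an established Hodgkin lymphoma cell line of B cell origin. The 2 treated arrays are of cells cultured in 30 uM LY294002 and the 3 control arrays of cells in DMSO, harvested at 16 hours; both groups grew in RPMI1640 with fetal calf serum and antibiotics. LY294002 is an inhibitor of phosphoinositide 3-kinase that also acts on mTOR, CK2 and BET bromodomain proteins. Triplicates were planned, and the submitters left out 1 array for high background.

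Small nuclear ribonucleoproteins (snRNPs) carry the RNAs that pair with splice sites, and each is built on a ring of Sm or LSM proteins. SR proteins bind exons through RNA recognition motifs and recruit the spliceosome through arginine- and serine-rich tails, while many hnRNPs bind the same transcripts and block that recruitment. CLK and SRPK kinases phosphorylate the tails of SR proteins, and signalling from phosphoinositide 3-kinase through AKT is known to reach this step. Several of these genes regulate their own messages through exons or retained introns that mark the transcript for decay or hold it in the nucleus. An expression array reads the amount of RNA under a probe set and neither splicing nor phosphorylation.

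Array medians lay between 6.26 and 6.29 (log2), and the upper quartile was 7.69 on LY294002 replicate 1 against 7.59 to 7.62 on the other arrays. As a sign of RNA quality, the ACTB control probe set at the 3' end minus that at the 5' end gave -0.96 to -0.71 with DMSO and -0.86 to -0.72 with LY294002. Of 9 measured Hodgkin and B-lineage markers, 6 had a DMSO signal above the median of all genes, among them TNFRSF8, the gene of CD30 (8.13, 8.49 and 8.09 with DMSO). The B-lineage genes CD79A, CD79B and POU2AF1 were below that median. Of these 9, IRF4, a transcription factor of the lineage, rose (0.66, limma adjusted p = 0.0473) and the other 8 did not pass, among them MS4A1, the gene of CD20 (-0.999, limma adjusted p = 0.073); their part in the results was not tested. The T cell markers CD2, CD3D, CD3E and CD3G also had signals above that median, and CD14, a monocyte marker, did not; none of the 4 T cell markers passed the test (limma adjusted p of 0.303 to 0.573). Of 3 fibroblast markers 1, COL1A1, was above that median (mean 6.90 with DMSO) and did not pass (-0.57, limma adjusted p = 0.367). Whether replicates came from separate cultures is not stated; a p-value here therefore reflects the spread of these arrays alone, possibly a technical one, and the number of arrays limits the precision. In RNA from a whole culture, fewer cells of a state and less RNA per cell cannot be told apart.

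One promoter sequence that the choice by name did not use recurred in these genes, most often in the snRNP genes and those of SF3A, SF3B and U2AF. RefSeq promoter entries were found for 62 of the 69 genes. The letters CCGGAAG, a consensus of the ETS family of factors, occurred on either strand within the 250 bases before the transcription start in 21 of them (33.9%). They occurred in 8.82% of all 27305 promoters of that length, and in 15% of the 3214 promoters of array genes whose DMSO signal was above the median of all genes. By class the letters stood in 6 of 8 promoters of the SF3A, SF3B and U2AF genes and 7 of 10 of the snRNP genes, against 2 of 13 of the hnRNP, 2 of 8 of the SR protein and 1 of 9 of the RBM genes. For the PRPF genes it was 2 of 5, for the LSM genes 1 of 6 and for the CLK genes 0 of 3. A match is a description of the letters and not a bound site. The start is that of the first RefSeq entry listed for a gene, and other starts were not searched. Not every window lies upstream of the whole gene. Those of SNRPG and SNRPE hold the gene's own first codons (atgagcaaagctcac and atggcgtaccgtggc), and in SNRPG the match lies after them. The windows shown are those of SRSF5 and HNRNPD, the highest and lowest log2 differences of the 69 genes, and of a PRPF, an SF3B, an snRNP and an RBM gene that hold the letters. Each is written 5' to 3' on the gene's strand, ends at the base before the start, and has the CCGGAAG match (or its reverse complement CTTCCGG) in capitals; the positions are SRSF5 (GRCh38.p14, chr14:69766892-69767141, plus strand), PRPF6 (GRCh38.p14, chr20:63980882-63981131, plus strand), SF3B2 (GRCh38.p14, chr11:66052114-66052363, plus strand), SNRPG (GRCh38.p14, chr2:70293459-70293708, minus strand), RBM8A (GRCh38.p14, chr1:145927485-145927734, minus strand) and HNRNPD (GRCh38.p14, chr4:82373992-82374241, minus strand).
SRSF5: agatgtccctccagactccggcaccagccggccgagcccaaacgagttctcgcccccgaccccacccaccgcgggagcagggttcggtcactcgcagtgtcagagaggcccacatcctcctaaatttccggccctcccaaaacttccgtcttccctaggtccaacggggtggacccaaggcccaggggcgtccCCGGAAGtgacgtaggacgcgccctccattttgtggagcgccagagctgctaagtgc
PRPF6: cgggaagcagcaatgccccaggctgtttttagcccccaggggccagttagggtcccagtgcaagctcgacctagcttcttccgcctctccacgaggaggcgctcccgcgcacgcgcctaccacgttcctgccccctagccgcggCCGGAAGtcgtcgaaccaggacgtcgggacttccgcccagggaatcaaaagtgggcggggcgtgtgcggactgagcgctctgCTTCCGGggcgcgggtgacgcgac
SF3B2: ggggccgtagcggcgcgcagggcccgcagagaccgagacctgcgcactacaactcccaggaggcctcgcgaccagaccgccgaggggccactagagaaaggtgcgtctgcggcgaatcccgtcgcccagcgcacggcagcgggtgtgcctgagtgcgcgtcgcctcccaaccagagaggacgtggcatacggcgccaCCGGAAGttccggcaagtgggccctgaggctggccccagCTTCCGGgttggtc
SNRPG: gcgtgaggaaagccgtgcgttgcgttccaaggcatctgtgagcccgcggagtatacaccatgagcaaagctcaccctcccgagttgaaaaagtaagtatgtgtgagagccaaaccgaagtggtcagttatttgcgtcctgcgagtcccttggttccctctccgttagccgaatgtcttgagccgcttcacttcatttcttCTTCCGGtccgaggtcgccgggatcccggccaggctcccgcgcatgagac
RBM8A: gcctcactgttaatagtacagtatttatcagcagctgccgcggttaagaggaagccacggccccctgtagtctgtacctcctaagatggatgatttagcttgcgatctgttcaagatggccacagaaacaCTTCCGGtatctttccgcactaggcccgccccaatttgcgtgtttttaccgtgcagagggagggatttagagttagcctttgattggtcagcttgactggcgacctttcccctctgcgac
HNRNPD: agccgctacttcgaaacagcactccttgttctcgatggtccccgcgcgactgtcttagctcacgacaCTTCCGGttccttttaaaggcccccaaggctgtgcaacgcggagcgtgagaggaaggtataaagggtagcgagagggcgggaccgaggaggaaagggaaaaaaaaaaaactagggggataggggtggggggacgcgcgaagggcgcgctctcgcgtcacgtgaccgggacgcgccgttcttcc

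PRPF6 and SF3B2 hold 2 matches each and the other 4 windows 1 each. The genes with the letters stood on both sides of 0 in the comparison with LY294002. Their median log2 difference was 0.016 (21 genes) and that of the genes without them -0.012. Of the genes with the letters, 6 had both LY294002 arrays above the DMSO range and 3 had both below, against 24.1% and 16.1% of all genes with a signal above the median, as all 21 have. The order of the medians was the same among array genes with a signal above the median, at 0.037 with the letters (481 genes) and 0.0076 without. Of those 481 genes, 121 had both LY294002 arrays above the DMSO range and 66 had both below. A further 7 motifs were searched on both strands of the same windows, where matches of different motifs may overlap. GGGCGG, the Sp1 box, was in 53.2% of the gene promoters described here and 58.4% of promoters of all array genes, CCAAT in 38.7% and 35.3%, and CACGTG, the E-box, in 9.68% and 7.99%. For TATAAA, the TATA box, the shares were 11.3% and 9.36%, and for the NRF1 site 1.61% and 1.37%. The FOXO letters TGTTTAC and the cyclic AMP element TGACGTCA were in 0 of 62 windows, against 2.29% and 2.61% for array genes.

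None of the 69 splicing factor genes passed the test of LY294002 against DMSO (limma, Benjamini-Hochberg adjusted p under 0.05), where 0.908% of all genes did (70 of 7713; 0.609% higher and 0.298% lower). The log2 differences ran from -0.68 for HNRNPD to 0.69 for SRSF5, a 1.61-fold higher level, so that no gene reached a 2-fold difference. Their median was 0.0076 against -0.011 over all genes, with 35 genes above 0 and 34 below. At an unadjusted p under 0.05 there were 12 genes higher and 9 lower, together 30.4%, against a background of 17.1% of all genes (10.6% higher and 6.5% lower). Most of the set gives a strong signal, with 62 of 69 above the median DMSO signal of all genes, and among all genes above that median the share was 26%, against 30.6% of the 62. The treated arrays were both higher than every control for 16 genes and both lower for 13, together 42%; the background was 29.6% of all genes and 40.1% of those with a signal above the median. These shares are near the background of genes of like signal. Under other settings of the fit 0 to 4 of the genes passed: HNRNPD in 3 settings, RBM39 in 2, and CLK1, RBM6 and SRSF5 in 1 each. A p that misses the threshold does not show that a gene was equal in both groups, and the intervals below give what these arrays allow.

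**Figure D1:**
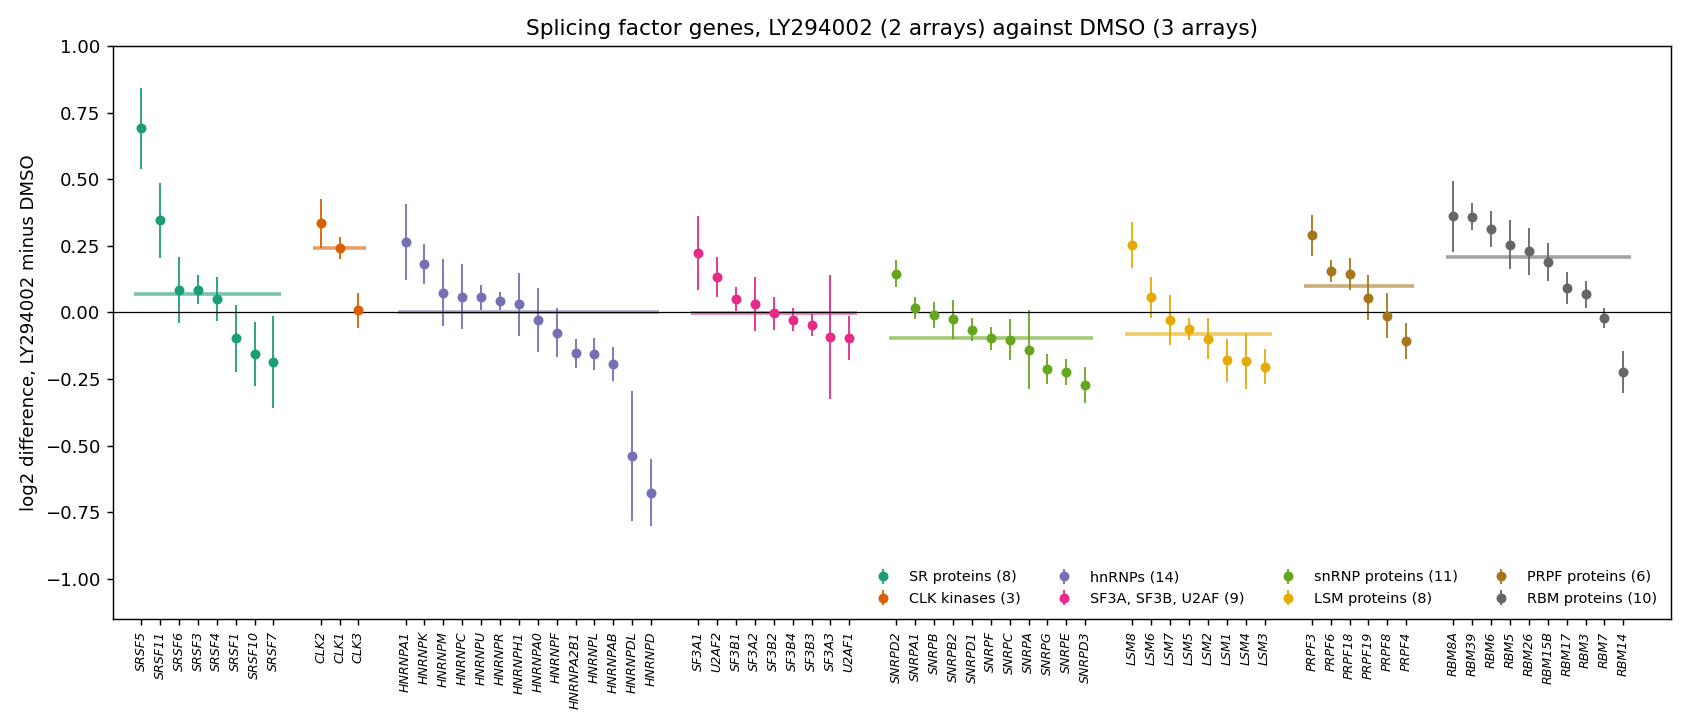
Log2 difference, LY294002 minus DMSO (vertical axis), of the 69 splicing factor genes by class (horizontal axis); points are estimates, error bars the standard error of the limma fit (3 DMSO and 2 LY294002 arrays), and horizontal bars class medians. The CLK and RBM medians (0.24 and 0.21) lie above 0 and the snRNP and LSM medians (-0.097 and -0.080) below it, while SRSF5 and HNRNPD are the extremes. The CLK median is the value of CLK1, which has a dim probe set.

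Among the SR proteins 5 of 8 were above 0, with a median of 0.067, and 0 passed the test. In 1 of 8 the unadjusted p was under 0.05, against 26% of genes with a signal above the median, as all 8 have. The groups did not overlap for 2 of 8, against 40.1% of those genes. SRSF5, a shuttling SR protein, read 9.43, 9.16 and 9.02 with DMSO and 10.02 and 9.77 with LY294002. Both treated arrays lay above all controls, although the DMSO arrays themselves ranged from 9.02 to 9.43, and the difference was 0.69 ± 0.15 (SE; 95% interval 0.29 to 1.09; limma adjusted p = 0.129). SRSF11, an SR-like protein that associates with U2AF, read 9.22, 9.26 and 9.38 with DMSO and 9.84 and 9.42 with LY294002. Its higher value came mainly from LY294002 replicate 1, and the second treated array lay just above the highest control (0.34 ± 0.14, limma adjusted p = 0.336; 0.13 without LY294002 replicate 1).

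The other 6 SR protein genes had overlapping groups. SRSF1, the founding member of the family, read 8.05, 7.80 and 7.72 with DMSO and 7.87 and 7.65 with LY294002, a difference of -0.097 ± 0.13 with a 95% interval of -0.43 to 0.24. For SRSF3, the smallest SR protein and an adaptor for mRNA export, the values were 6.29, 6.29 and 6.28 with DMSO and 6.45 and 6.29 with LY294002, and those of SRSF7, a related export adaptor, were 7.21, 7.74 and 7.52 with DMSO and 7.41 and 7.20 with LY294002. The controls of SRSF7 spread more widely than the treated arrays differed from them (-0.19 ± 0.17). SRSF4 stood at 0.050 ± 0.08 and SRSF6 at 0.085 ± 0.12, both exon-binding SR proteins with long tails. SRSF10, which represses splicing when dephosphorylated, has probe sets that disagree in sign: the brighter gave -0.16 ± 0.12 and the other 0.19 ± 0.10 (limma adjusted p = 0.501 and 0.438). The adjusted p-values of these 6 genes ran from 0.458 to 0.745 by limma.

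The CLK kinases phosphorylate SR proteins in the nucleus, and the message of CLK1 itself is known to retain introns. CLK1 read 4.35, 4.45 and 4.37 with DMSO and 4.63 and 4.63 with LY294002. The treated arrays were nearly equal and stood above every control, with a difference of 0.24 ± 0.04 (95% interval 0.14 to 0.35; limma adjusted p = 0.0821), on the probe set with the dimmest DMSO signal of the 69. That signal stood at percentile 5.98 of all genes, near the low end of the array. CLK2 read 8.99, 9.10 and 8.99 with DMSO and 9.49 and 9.23 with LY294002, again without overlap, and differed by 0.33 ± 0.09 (limma adjusted p = 0.181). CLK3 read 7.27, 7.29 and 7.41 with DMSO and 7.27 and 7.39 with LY294002, with the groups interleaved. Its difference of 0.0076 ± 0.07 (limma adjusted p = 0.961) turned negative after quantile normalization (-0.045) and cyclic loess (-0.011). Both treated arrays lay above the controls in 2 of 3 CLK genes. The background was 16.2% of all genes and 24.1% of those with a signal above the median (2 of the 3). CLK1 passed the test after quantile normalization (limma adjusted p = 0.0458); the adjusted p ran from 0.0458 to 0.428 over all limma alternatives.

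**Figure D2:**
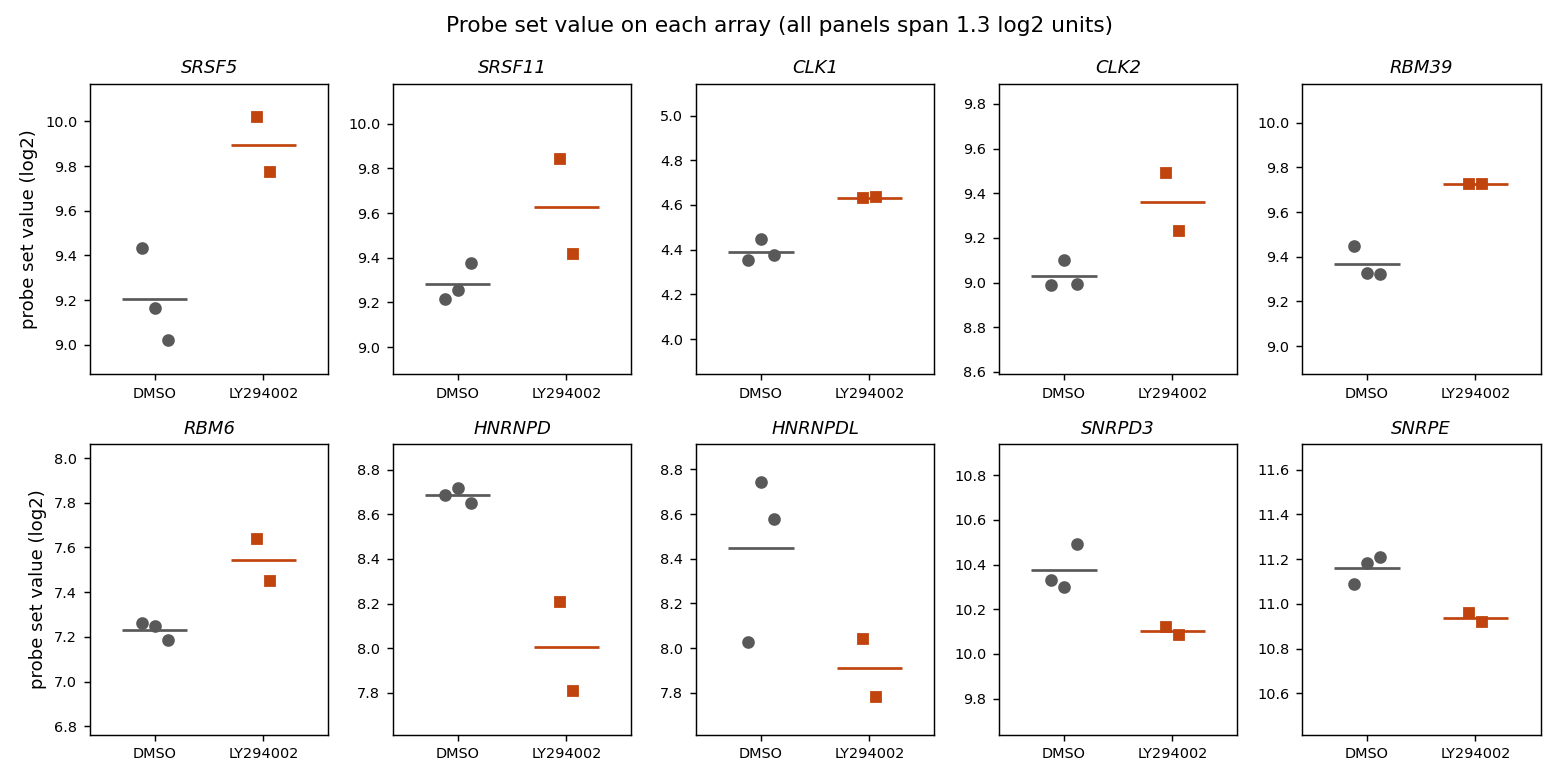
Probe set value (log2, vertical axis) on each DMSO array (circles) and LY294002 array (squares) for 10 splicing factor genes; horizontal bars are group means, and every panel spans 1.3 log2 units. The 10 are among the largest differences of their classes. The groups do not overlap for 9 of them, which the choice of large differences favours. That share is therefore not comparable with the 42% of the 69 genes or the 40.1% of genes with a signal above the median. For HNRNPDL, DMSO replicate 1 (8.03) lies among the LY294002 arrays.

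Of 14 hnRNP genes 7 were above 0 and 7 below, and the median was 0.00074. No gene passed the test, 0 had an unadjusted p under 0.05 on the higher side and 4 on the lower, against 16.4% and 9.52% of genes with a signal above the median, as 13 of the 14 have. HNRNPD (AUF1), which binds AU-rich elements and directs mRNA decay, was the lowest of the 69 genes and read 8.69, 8.72 and 8.65 with DMSO and 8.21 and 7.81 with LY294002. The controls agreed closely, both treated arrays lay far below them, and the treated arrays differed from each other; the difference was -0.68 ± 0.13 (95% interval -1.01 to -0.34; limma adjusted p = 0.0995). A further HNRNPD probe set read 7.39, 7.81 and 7.73 with DMSO and 7.06 and 6.75 with LY294002, a difference of -0.74 ± 0.17 in the same direction (limma adjusted p = 0.14). HNRNPD passed after quantile normalization (adjusted p = 0.0229 by limma) and cyclic loess (0.0347); the adjusted p ran from 0.0122 to 0.415 over all limma alternatives.

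HNRNPDL, its paralog, read 8.03, 8.74 and 8.58 with DMSO and 8.04 and 7.78 with LY294002. DMSO replicate 1 lay at the level of the treated arrays, and the difference of -0.54 ± 0.24 did not exceed that spread (limma adjusted p = 0.376; -0.75 without DMSO replicate 1). In RefSeq's gene table of GRCh38.p14, HNRNPD and HNRNPDL are next to each other on chromosome 4 with 0 protein-coding genes between them. HNRNPAB, a further relative of HNRNPD, read 10.64, 10.75 and 10.59 with DMSO and 10.52 and 10.41 with LY294002, with every treated array below every control (-0.19 ± 0.06, limma adjusted p = 0.245). HNRNPL, which binds CA repeats, and HNRNPA2B1 were also separated, at -0.16 ± 0.06 and -0.15 ± 0.05 (limma adjusted p = 0.292 and 0.26).

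On the higher side, HNRNPK, a poly-C binding protein, read 8.82, 8.89 and 8.90 with DMSO and 9.16 and 8.95 with LY294002. Of the 14 hnRNP genes it alone had both treated arrays above all controls (0.18 ± 0.08, limma adjusted p = 0.342). Outside the 14, a probe set given to HNRNPH2 and RPL36A-HNRNPH2 together was also separated on the higher side (0.46 ± 0.12, limma adjusted p = 0.169). HNRNPA1, which silences exons, stood at 0.26 ± 0.14 on its 1 probe set with a single symbol, where only LY294002 replicate 1 stood above the controls (0.069 without that array). A brighter probe set that the annotation gives to HNRNPA1 and a pseudogene together stood on the other side of 0, at -0.18 ± 0.11 with overlapping groups, so that the sign for HNRNPA1 is uncertain. HNRNPM stood at 0.074 ± 0.12 and turned to -0.013 without that array. The remaining 6 hnRNP genes (HNRNPC, HNRNPU, HNRNPR, HNRNPH1, HNRNPA0 and HNRNPF) had overlapping groups and differences of -0.076 to 0.059.

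Among the snRNP protein genes 9 of 11 were below 0 with LY294002, with a median of -0.097, and 0 passed the test. Below 0 were also 1840 of 3856 genes with a signal above the median, and 4277 of all 7713. All 7 proteins of the Sm ring, the core shared by the spliceosomal snRNPs, were measured. SNRPD3 read 10.33, 10.30 and 10.49 with DMSO and 10.12 and 10.08 with LY294002, a difference of -0.27 ± 0.07 (95% interval -0.45 to -0.090; limma adjusted p = 0.164). SNRPE, the brightest probe set of the 69 genes, read 11.09, 11.18 and 11.21 with DMSO and 10.96 and 10.92 with LY294002 and differed by -0.22 ± 0.05 (95% interval -0.35 to -0.095; limma adjusted p = 0.128). Both treated arrays lay below every control in SNRPD3 and SNRPE, and likewise in SNRPG, which read 9.47, 9.60 and 9.61 with DMSO and 9.33 and 9.36 with LY294002 (-0.21 ± 0.06, limma adjusted p = 0.169).

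Values differed within the Sm ring. SNRPF was separated on the lower side by a small step (-0.097 ± 0.04), while SNRPB and SNRPD1 overlapped at -0.0096 ± 0.05 and -0.065 ± 0.04. SNRPD2 lay on the other side, at 10.38, 10.28 and 10.42 with DMSO and 10.49 and 10.52 with LY294002, with both treated arrays above the controls (0.14 ± 0.05, limma adjusted p = 0.271). The U1 proteins SNRPA and SNRPC stood at -0.14 ± 0.15 and -0.10 ± 0.08, and the U2 proteins SNRPA1 and SNRPB2 at 0.016 ± 0.04 and -0.026 ± 0.07, all 4 with overlapping groups. Both treated arrays thus shared a direction against the controls in 5 of 11 snRNP genes, 4 of them lower, where the background of genes with a signal above the median, as all 11 have, is 40.1% in either direction and 16.1% on the lower side (29.6% and 13.4% of all genes).

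LSM proteins form the like rings: LSM2 to LSM8 hold the U6 snRNA in the nucleus, and LSM1 takes the place of LSM8 in the cytoplasmic ring that promotes decapping of mRNA. All 8 were measured, 6 of 8 were below 0, the median was -0.080 and 0 passed. The subunits that tell the rings apart stood on opposite sides. LSM8, of the nuclear ring, read 7.88, 7.73 and 7.72 with DMSO and 8.13 and 7.93 with LY294002, above all controls (0.25 ± 0.09, limma adjusted p = 0.261). LSM1, of the cytoplasmic ring, read 8.34, 8.57 and 8.54 with DMSO and 8.31 and 8.29 with LY294002, below all controls (-0.18 ± 0.08, limma adjusted p = 0.376). LSM3, a subunit of both rings, read 8.47, 8.48 and 8.65 with DMSO and 8.33 and 8.33 with LY294002 and was also separated (-0.20 ± 0.07, limma adjusted p = 0.238). LSM4 stood at -0.18 ± 0.10, LSM6 at 0.056 ± 0.08 and LSM7 at -0.030 ± 0.09, and LSM2 and LSM5 at -0.099 ± 0.08 and -0.061 ± 0.04, all 5 with overlapping groups. The difference between LSM8 and LSM1 was not tested. The groups did not overlap for 3 of 8 LSM genes. The background was 40.1% of genes with a signal above the median, as 7 of the 8 have.

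Factors that select the branch point and the 3' splice site had the smallest differences, with a median size of 0.050 on the log2 scale against 0.10 to 0.24 in the other 7 classes. Of the 9 SF3A, SF3B and U2AF genes 4 were above 0 and 5 below, the median was -0.0037, and 0 passed. None had an unadjusted p under 0.05, against 26% of genes with a signal above the median, as all 9 have. SF3B1, the subunit that clamps the branch point, read 9.24, 9.16 and 9.24 with DMSO and 9.30 and 9.22 with LY294002, a difference of 0.050 ± 0.04 with a 95% interval of -0.070 to 0.17. SF3B3 stood at -0.047 ± 0.04 and SF3A1, a U2 snRNP subunit, at 0.22 ± 0.14 (0.091 without LY294002 replicate 1). U2AF2, which binds the polypyrimidine tract, read 7.59, 7.56 and 7.56 with DMSO and 7.82 and 7.59 with LY294002, a difference of 0.13 ± 0.08 that was 0.017 without LY294002 replicate 1. Its partner U2AF1, which reads the AG at the end of the intron, stood at -0.097 ± 0.08 and read 9.88, 10.11 and 9.90 with DMSO and 9.87 and 9.86 with LY294002, with the treated arrays just below the controls. SF3A3 had the widest interval of the class, -0.71 to 0.52, where DMSO replicate 1 read 6.96 against 7.48 and 7.67. The subunits SF3A2, SF3B2 and SF3B4 lay between -0.028 and 0.031 with overlapping groups.

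PRPF proteins act in the U4/U6.U5 tri-snRNP and the catalytic steps. Of 6 genes 4 were above 0, with a median of 0.099 and 0 past the test. PRPF3, of the U4/U6 snRNP, read 6.24, 6.20 and 6.07 with DMSO and 6.54 and 6.38 with LY294002, and PRPF6, which bridges U5 to U4/U6, read 8.49, 8.54 and 8.55 with DMSO and 8.64 and 8.72 with LY294002. Both were separated on the higher side (0.29 ± 0.08 and 0.15 ± 0.04; limma adjusted p = 0.176 and 0.173), as was PRPF18, a late-acting splicing factor (0.14 ± 0.06). PRPF4, the partner of PRPF3, was separated on the lower side (8.90, 9.07 and 8.90 with DMSO and 8.81 and 8.89 with LY294002; -0.11 ± 0.07, limma adjusted p = 0.456). PRPF8, the centre of the catalytic core, stood at -0.012 ± 0.08 (95% interval -0.24 to 0.21), and PRPF19, a ubiquitin ligase of the spliceosome, at 0.055 ± 0.08. The groups did not overlap for 3 PRPF genes on the higher side and 1 on the lower. The background was 24.1% and 16.1% of genes with a signal above the median, as 5 of the 6 have.

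The RBM genes code for diverse RNA-binding proteins, many of them splicing regulators. Of 10 genes 8 were above 0, the median was 0.21, 0 passed, and 5 had an unadjusted p under 0.05 on the higher side and 1 on the lower, against 10.6% and 6.5% of all genes and 16.4% and 9.52% of those with a signal above the median (7 of the 10). RBM39, a U2AF-like factor that is degraded by aryl sulfonamide drugs, read 9.45, 9.33 and 9.32 with DMSO and 9.72 and 9.73 with LY294002. The treated arrays were almost identical and stood above every control, and its adjusted p was the lowest of the 69 genes (0.36 ± 0.05; 95% interval 0.22 to 0.49; limma adjusted p = 0.0684). It passed after the dimmest 40% of probe sets were left out (limma adjusted p = 0.0406); the adjusted p ran from 0.0189 to 0.381 over all limma alternatives.

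RBM5 and RBM6, related splicing regulators, are also neighbours, on chromosome 3 with 0 protein-coding genes between them in GRCh38.p14. RBM6 read 7.26, 7.25 and 7.18 with DMSO and 7.64 and 7.45 with LY294002 (0.31 ± 0.07, limma adjusted p = 0.127), and RBM5 read 7.96, 7.73 and 7.73 with DMSO and 8.01 and 8.12 with LY294002 (0.25 ± 0.09, limma adjusted p = 0.28), both with the treated arrays above the controls. They and the HNRNPD pair were the 2 pairs of neighbouring protein-coding genes among the 69, and in each the members lay on the same side of 0. RBM8A, the exon junction protein Y14, stood at 0.36 ± 0.13, RBM26, an RNA-binding protein of nuclear RNA decay, at 0.23 ± 0.09, and RBM15B, an adaptor of the m6A writer complex, at 0.19 ± 0.07, all 3 separated. RBM14, a paraspeckle protein, was the 1 RBM gene on the other side of the control range, at 7.65, 7.59 and 7.62 with DMSO and 7.52 and 7.28 with LY294002 (-0.22 ± 0.08, limma adjusted p = 0.267). The cold-induced RBM3 (0.067 ± 0.05), RBM7 (-0.021 ± 0.04) and RBM17 (0.090 ± 0.06) overlapped. Both treated arrays were above the controls in 6 of 10 RBM genes, against 16.2% of all genes and 24.1% of those with a signal above the median, and 7 of 10 were separated in either direction, against 29.6% and 40.1%.

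Set side by side, the classes differed in where their members lay, as a description with no test. The medians were 0.24 for the CLK kinases (3 genes), 0.21 for the RBM, 0.099 for the PRPF and 0.067 for the SR proteins, 0.00074 for the hnRNPs, -0.0037 for the SF3A, SF3B and U2AF, -0.080 for the LSM and -0.097 for the snRNP proteins. The CLK median is the value of CLK1, on its dim probe set, between CLK2 at 0.33 and CLK3 at 0.0076. The CLK, RBM, PRPF, LSM and snRNP medians kept their sign after quantile normalization, cyclic loess and median centring, while the hnRNP median was negative under all 3 (-0.043, -0.031 and -0.0036). The SR protein median was -0.00037 after quantile normalization, and that of the SF3A, SF3B and U2AF genes -0.063.

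The treated arrays also differed from each other. Relative to each gene's DMSO mean, the median of the 69 genes was -0.035, 0.021 and 0.00043 on the DMSO arrays and 0.070 and -0.013 on LY294002 replicates 1 and 2. For the SR proteins it was 0.060, 0.012 and -0.092 on the DMSO arrays and 0.12 and 0.0052 on LY294002 replicates 1 and 2, so that the treated array 2 lay within the controls. For the hnRNPs the treated arrays took opposite signs (0.070 and -0.071), as they did for the SF3A, SF3B and U2AF genes (0.081 and -0.065). For the CLK kinases both lay above the DMSO arrays (0.24 and 0.20), for the RBM proteins likewise (0.24 and 0.12), and for the LSM proteins both lay below them (-0.10 and -0.11). Among snRNP genes LY294002 replicate 1 (-0.054) lay within the DMSO range and replicate 2 (-0.12) below it. In every class LY294002 replicate 1, the array with the upper quartile of 7.69, had the higher median of the 2 treated arrays. Over all genes the order was the other way, at -0.015 on LY294002 replicate 1 and -0.00083 on replicate 2. The part of LY294002 replicate 1 in these values was not tested as such. Quantile normalization gives every array the same quartiles, and under it 28 of 69 genes were above 0 in place of 35, with a median of -0.043. Without LY294002 replicate 1, 32 of 69 genes were above 0, with a median of -0.013.

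**Figure D3:**
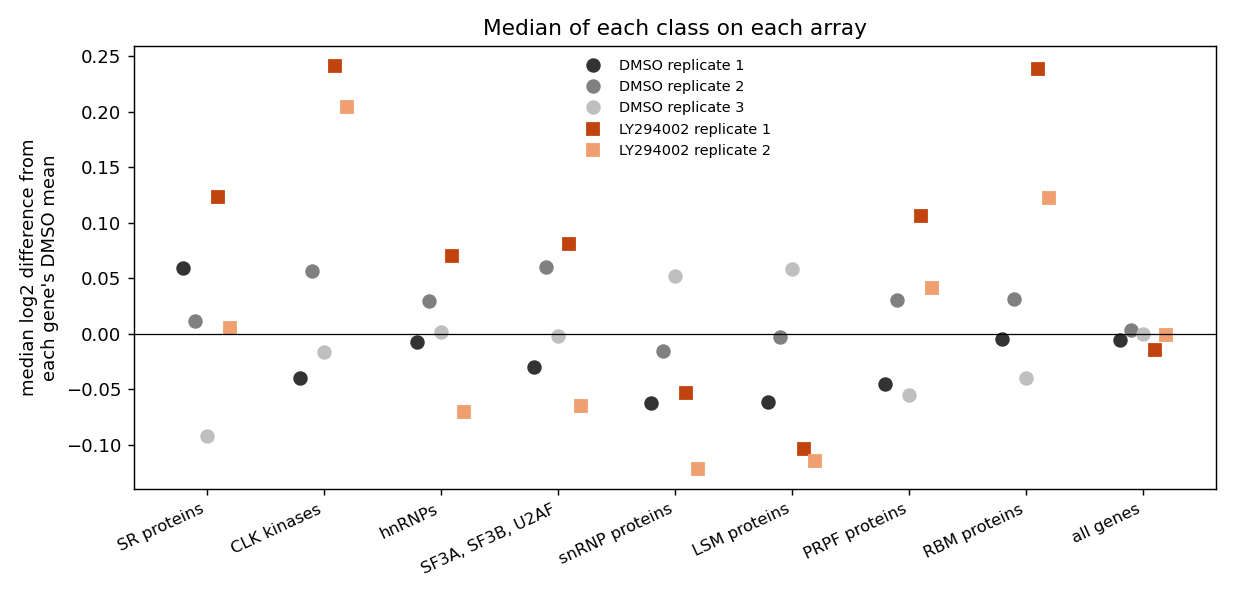
Median over the genes of each class of the log2 difference from each gene's DMSO mean (vertical axis) on each of the 5 arrays, with all 7713 genes on the right. The LY294002 arrays (squares) stand above all DMSO arrays (circles) for the CLK, PRPF and RBM genes and below them for the LSM genes, and in every class replicate 1 is the higher of the treated arrays. Over all genes replicate 1 is the lower of the treated arrays.

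Other genes of the splicing pathway, outside the names that chose the 69, gave the same count: 0 passed in any of 6 lists, against 0.908% of all genes. Of other spliceosome proteins 26 of 54 listed genes were measured (median 0.047), from the helicase DDX39A at -0.24 ± 0.09 to the U5 protein TXNL4A at 0.45 ± 0.12. Of other splicing regulators 33 of 42 were measured (median 0.062), from ILF2 at -0.33 ± 0.09 to the poly-C binding PCBP2 at 0.69 ± 0.16. For SMN and snRNP assembly it was 7 of 17 (median 0.049), with PRMT5, the methylase of Sm proteins, the lowest at -0.14 ± 0.09 and CLNS1A, its partner, the highest at 0.081 ± 0.03. For 3' end processing 10 of 18 were measured (median 0.040; NUDT21 -0.17 ± 0.10, CPSF6 0.58 ± 0.17), and for the exon junction complex and nonsense-mediated decay 3 of 17 (median 0.14; RNPS1 0.098 ± 0.06, UPF1 0.41 ± 0.15). At an unadjusted p under 0.05 the 92 genes of the 6 lists held 18 higher and 4 lower, against 10.6% and 6.5% of all genes and 16.4% and 9.52% of those with a signal above the median, as 72 of the 92 have.

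The list of kinases, phosphatases and import factors of SR proteins beside the CLK family had 13 of 14 genes measured and a median of 0.11. SRPK2, the cytoplasmic kinase that prepares SR proteins for import, read 5.56, 5.54 and 5.73 with DMSO and 6.44 and 6.16 with LY294002, with both treated arrays above the controls (0.69 ± 0.11; 1.61-fold; limma adjusted p = 0.0776). AKT2, a kinase downstream of phosphoinositide 3-kinase, read 5.18, 5.25 and 5.19 with DMSO and 4.96 and 5.02 with LY294002. Both treated arrays lay below the controls (-0.22 ± 0.04, limma adjusted p = 0.0827). AKT1, on a brighter probe set, went the other way, at 8.34, 8.53 and 8.31 with DMSO and 8.87 and 8.63 with LY294002. Both treated arrays lay above the controls (0.35 ± 0.11, limma adjusted p = 0.214). None of these genes passed the threshold.

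**Figure D4:**
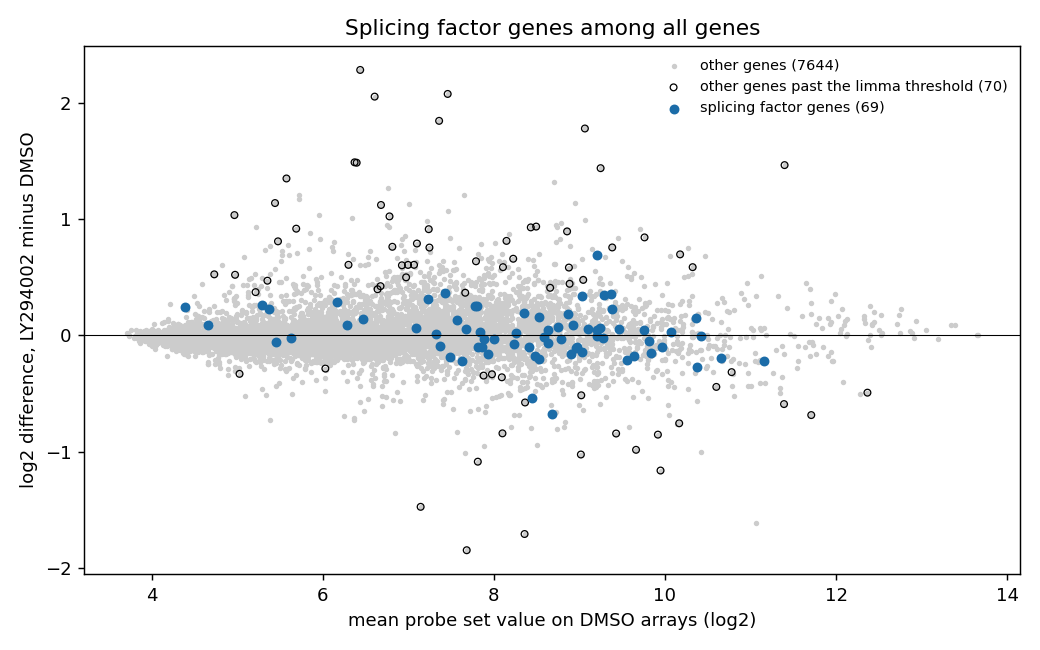
Log2 difference, LY294002 minus DMSO (vertical axis), against the mean probe set value on the DMSO arrays (log2, horizontal axis) for the 69 splicing factor genes (filled), the 7644 other genes (grey) and the 70 of those past the limma threshold (open circles). The splicing factor genes lie between -0.68 and 0.69, inside the cloud of the other genes, and none is past the threshold.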

How the data were processed

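Deposited values were log2 probe set values of 5 arrays, made by the authors in R with affy, as the submitters' processing notes name it; how background was corrected and probes summarised is not given in the sources used here, nor is the version. They were used as deposited. Of 8793 probe sets 47 controls were left out and 8746 fitted with limma 3.58.1 (lmFit and eBayes, statmod 1.5.0, R 4.3.3), group as the only term, Benjamini-Hochberg adjustment over all 8746 and a threshold of 0.05. Errors are standard errors of this fit. Intervals are 95% and use 3 residual degrees of freedom together with 1.5 prior degrees of freedom from eBayes. Gene names came from the platform annotation: 7840 probe sets had 1 symbol, 388 several and 518 none; the brightest of a gene's probe sets stood for it. Probe sets marked as shared by several transcripts can bind RNA of related genes. Signals of probe sets were ordered only to mark them as dim or bright, which is no measure of the amount of RNA of one gene against another.

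The members, lists, naming rule and alternatives were chosen with earlier results of these data known. The rule names every SRSF and CLK gene, any member past the threshold, the 3 highest and 3 lowest differences of each other class, the brightest and dimmest member, and the highest and lowest gene of each related list; other named genes were chosen after their values were seen. The fit was tested on simulated data. Alternatives were quantile normalization, cyclic loess, median centring, a filter on dim probe sets, a robust prior with an intensity trend, weights per array, a replicate block, averaging of probe sets per gene, removal of probe sets with identical values within a group, and each array left out. Promoter windows are RefSeq's (GRCh38.p14), from the first entry of full length listed for each gene. Figures used matplotlib 3.10.9 in Python 3.11.15.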

Additional observations from a re-analysis of the deposited data

How the results depend on the processing

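The count of splicing factor genes past the limma threshold was 0 of 69 in the analysis as reported. It was 2 after quantile normalization (CLK1 higher, HNRNPD lower), 1 after cyclic loess (HNRNPD), 1 of 63 without dim probe sets (RBM39, higher) and 4 of 60 without probe sets with identical values in a group (RBM39, RBM6 and SRSF5 higher, 3 in all, and HNRNPD lower; limma adjusted p of 0.0122 to 0.0434). It was 0 under the other settings, among them each array left out. Over all genes the count of 70 (47 higher) became 299 (172) after quantile normalization, 264 (168) after cyclic loess, 147 (99) after median centring, 203 (141) without dim probe sets, 510 (349) without identical values, 101 (75) with an intensity trend, 17 (12) with array weights, and 0 to 4 when 1 array was left out (4 without DMSO replicate 1, 0 without any other). With the replicate block it was 0, and 0 higher. The numbers are not stated to pair arrays: deviations of same-numbered arrays correlated at 0.0021 and -0.21, and the block leaves 1 residual degree of freedom. The cause of these shifts was not tested.

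Class medians moved by more than the spread between arrays in these cases: CLK to 0.17 without dim probe sets (2 genes left), PRPF to 0.041 and snRNP to -0.16 after quantile normalization, and snRNP to -0.043 with the replicate block. With 1 array left out the medians ran from -0.071 to 0.070 (hnRNP), 0.041 to 0.12 (PRPF), 0.12 to 0.24 (RBM), -0.065 to 0.081 (SF3A, SF3B, U2AF), -0.12 to -0.043 (snRNP) and -0.013 to 0.070 (all 69). Of the 69 genes 22 changed sign at least once, and 0 of the 11 with a limma adjusted p under 0.2 did. The values with the sign changed were CLK3 -0.045, LSM6 -0.0086, PRPF19 -0.0041, SF3B1 -0.00020, SF3A2 -0.029, SNRPA1 -0.043 and SRSF4 -0.018 after quantile normalization, CLK3 -0.011, RBM7 0.0039, SF3A2 -0.0013 and SNRPA1 -0.020 after cyclic loess, HNRNPM -0.027, LSM7 0.00022, SF3B2 0.0051, SF3A3 0.057, SNRPB2 0.034 and SRSF4 -0.016 with the replicate block, and SRSF10 0.014 for the mean of probe sets. Ranges that span 0 with 1 array left out were CLK3 -0.055 to 0.070, HNRNPA0 -0.13 to 0.071, HNRNPC -0.039 to 0.15, HNRNPF -0.22 to 0.070, HNRNPH1 -0.075 to 0.099, HNRNPM -0.027 to 0.16, LSM6 -0.042 to 0.15, LSM7 -0.16 to 0.099, PRPF8 -0.058 to 0.064, RBM7 -0.038 to 0.0028, SF3A2 -0.13 to 0.19, SF3A3 -0.29 to 0.057, SF3B2 -0.089 to 0.081, SF3B4 -0.053 to 0.0024, SNRPA1 -0.015 to 0.039, SNRPB -0.069 to 0.050, SNRPB2 -0.078 to 0.034, SRSF1 -0.20 to 0.0098 and SRSF4 -0.016 to 0.11. Where 1 LY294002 array remains, it is assumed to vary like the controls.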

Other observations

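A further 9 probe sets carry a name of the set together with another symbol, and no gene's level was taken from them. Their log2 differences ran from -0.36 to 0.46, and 0 passed the limma threshold (adjusted p of 0.169 to 0.93). In 1 of them both LY294002 arrays lay above the DMSO range, and in 2 below it, against 16.2% and 13.4% of all genes.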
